A study of Mus musculus with 4 samples.

Results

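The peaks described here are the strongest compact marks of trimethylated histone H3 lysine 4 (H3K4me3) at gene starts in the mouse heart. They were chosen by 3 properties of the list replicated over both pools, namely a signal value of at least 20, a width below 2000 bp, and overlap with the 1000 bp on either side of a protein-coding transcript start. The rule found 1365 peaks among 24996 in the list and among 15755 at protein-coding starts (5.46% and 8.66%). Signal value and width are therefore what chose these peaks, and their levels are given as a description.

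The libraries were made by chromatin immunoprecipitation and sequencing (ChIP-seq) with an antibody to H3K4me3 from heart tissue of adult female B6CASTF1/J mice, 2 months old, the hybrid offspring of C57BL/6J and CAST/EiJ strains. There were 2 pools, G and H, each of 2 heart biosamples, and each pool gave 2 technical libraries from fragments of 200 to 600 bp. No treatment or genotype differed between the pools, so the 2 pools show only how far the values repeat. The signal value is read as fold enrichment of the immunoprecipitated DNA over a control. Tissue is a mixture of cells, so fewer cells with the mark and less of the mark per cell cannot be told apart.

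H3K4me3 is placed by the SET1 and MLL methyltransferase complexes on the nucleosomes that flank an active or poised transcription start. The start itself lies in a stretch with few nucleosomes, where sequence-specific factors bind, and the mark is usually densest on the first nucleosomes inside the gene. Genes that define a cell type often carry the mark as a broad domain, while genes used in every cell often carry a compact one. ETS-family proteins, NRF1, YY1, NF-Y (which binds the CCAAT box) and the Sp and Klf factors (which bind the GC box) are known to act close to the starts of such widely used genes.

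Promoters of 8 members from the top of the signal ranking are shown first, because they hold the ETS, NRF1 and CCAAT letters whose shares are compared below. Each line is the 150 bases before the annotated start, 5′ to 3′ in the sense of the gene, in the C57BL/6J reference (mm10, RefSeq GRCm38.p6), and no annotated exon lies in it. Capitals mark the letters of an ETS site (CCGGAAG), an NRF1 site (GCGCATGCG), a CCAAT box (CCAAT) or a GC box (GGGCGG) on either strand. The first 3 lines hold an ETS site, the next an NRF1 site, and the last 4 CCAAT boxes.
Rwdd2b: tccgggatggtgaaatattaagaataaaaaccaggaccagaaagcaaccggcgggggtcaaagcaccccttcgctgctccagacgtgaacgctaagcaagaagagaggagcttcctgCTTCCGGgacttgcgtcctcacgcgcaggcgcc
Sptlc1: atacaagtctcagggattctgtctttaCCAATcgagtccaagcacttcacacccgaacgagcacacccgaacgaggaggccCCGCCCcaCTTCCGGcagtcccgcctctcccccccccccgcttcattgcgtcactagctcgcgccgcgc
Letmd1: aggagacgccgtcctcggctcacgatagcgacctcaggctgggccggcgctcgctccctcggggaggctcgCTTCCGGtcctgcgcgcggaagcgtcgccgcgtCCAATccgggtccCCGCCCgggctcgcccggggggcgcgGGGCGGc
Bcdin3d: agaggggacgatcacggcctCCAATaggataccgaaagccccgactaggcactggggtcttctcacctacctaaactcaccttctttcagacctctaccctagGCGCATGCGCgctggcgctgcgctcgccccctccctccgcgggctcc
Cds2: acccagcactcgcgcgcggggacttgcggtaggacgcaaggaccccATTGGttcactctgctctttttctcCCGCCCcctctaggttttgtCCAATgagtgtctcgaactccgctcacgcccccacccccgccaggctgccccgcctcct
Tigd2: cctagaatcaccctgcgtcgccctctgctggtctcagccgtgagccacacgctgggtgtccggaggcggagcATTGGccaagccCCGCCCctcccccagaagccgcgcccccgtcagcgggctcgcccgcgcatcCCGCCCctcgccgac
Dld: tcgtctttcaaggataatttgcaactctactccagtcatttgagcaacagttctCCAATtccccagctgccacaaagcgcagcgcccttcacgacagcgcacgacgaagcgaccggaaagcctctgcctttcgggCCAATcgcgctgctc
Cep131: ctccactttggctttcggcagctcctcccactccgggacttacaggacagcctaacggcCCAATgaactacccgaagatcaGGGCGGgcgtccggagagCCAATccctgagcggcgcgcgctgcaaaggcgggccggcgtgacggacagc
The lines of Rwdd2b (chr16:87440574-87440723), Sptlc1 (chr13:53377398-53377547), Bcdin3d (chr15:99474731-99474880), Dld (chr12:31351454-31351603) and Cep131 (chr11:120086828-120086977) are the minus strand. Those of Letmd1 (chr15:100468873-100469022), Cds2 (chr2:132262998-132263147) and Tigd2 (chr6:59208720-59208869) are the plus strand. They are not a sample of all members, since they were taken in order of signal value among 358 members whose 150 bases meet no exon and hold a listed motif, leaving out 4 with GC boxes alone.

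Rwdd2b had a signal value of 26.6 in the replicated list, 31.7 in pool G and 18.6 in pool H, and its 1 ETS site begins 33 bp before the start (position −33), on the strand opposite to the gene. Sptlc1, a subunit of the enzyme that begins sphingolipid synthesis, had 26.3, with 29.1 in pool G and 23.4 in pool H, and holds an ETS site at −61, a GC box at −69 and a CCAAT box at −123. Letmd1 had 26.3, with 29.7 in pool G and 22.6 in pool H, and combines an ETS site at −79 with a CCAAT box at −46 and GC boxes at −7 and −33. All 3 sites read in the opposite direction to the gene, and the peak of Letmd1 is the only one of the 8 whose summit lies before the start (142 bp before it). Bcdin3d, an RNA methyltransferase gene, had 26.9, with 27.5 in pool G and 25.2 in pool H, and its NRF1 letters at −47 are a palindrome read on both strands.

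Cds2, which makes CDP-diacylglycerol for phospholipid synthesis, had a signal value of 27.2 and holds CCAAT letters at −59 and, on the other strand, at −104. Dld, the shared E3 subunit of the pyruvate and 2-oxoglutarate dehydrogenase complexes, had 26.6 and holds CCAAT letters at −15 and −96. Cep131, a centrosome protein, had a signal value of 26.2 in a peak of 828 bp. Tigd2 had 27.2 and holds a CCAAT box at −78 beside GC boxes at −66 and −15. In each of the 8 promoters the value was higher in pool G than in pool H.

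Within the rule the peaks were uniform in height. The median signal value was 21.9 (quartiles 20.9 and 23.4) and the median width 1533 bp (quartiles 1297 and 1743 bp). The 940 promoter peaks of signal 20 or more and at least 2000 bp wide, called strong wide peaks below, had a median signal value of 21.8 and a median width of 2513 bp. The 10596 promoter peaks under 2000 bp with a signal value below 20, called weaker narrow peaks, had a median of 10.6 and a width of 1121 bp. The members thus matched the strong wide peaks in height, as the rule sets. Signal values repeat, since the 1365 peaks held only 645 distinct values and 14 peaks shared the value 20.5.

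**Figure D1:**
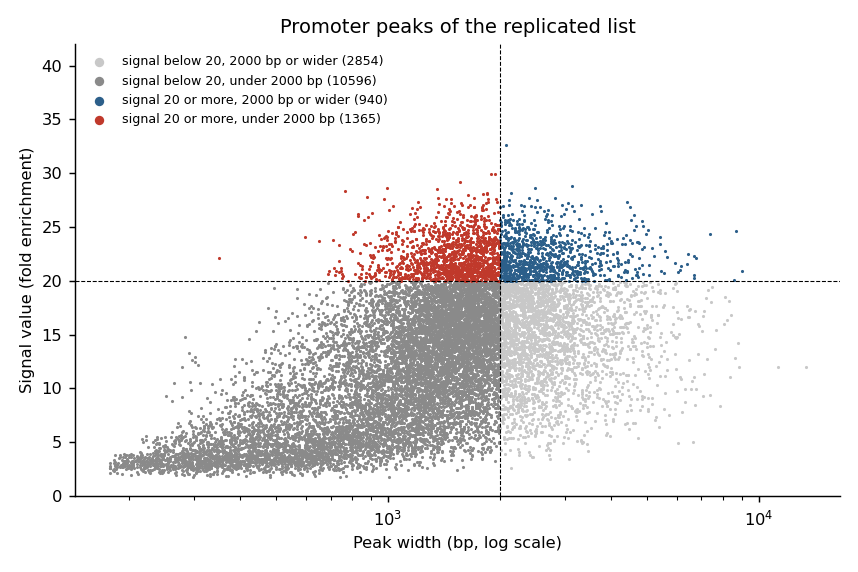
Signal value against width (log scale) of the 15755 promoter peaks, 1 point per peak. Red points are the 1365 members, blue the 940 strong wide peaks, dark grey the 10596 weaker narrow peaks and light grey the 2854 weaker peaks of 2000 bp or more. Dashed lines are the limits of the rule, and both cross a continuous cloud.

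Both limits cut through a continuous range. Just inside the signal limit were Polr2f, a subunit shared by the RNA polymerases, at 20.0 (23.8 in pool G and 15.9 in pool H), with Tmem30a, Med6, Heatr1 and Anxa2 following, the last at 20.02. Just outside were Hivep1 at 19.99 (24.7 in pool G and 17.1 in pool H), Hspbp1, AU022252, Jpt2 and Ing3, the last at 19.98. Just inside the width limit were Grpel2 at 1998 bp, Pigm at 1997 bp and Coq6 at 1996 bp, and just over it were Atad2 at 2000 bp, Nepro at 2001 bp and Calr at 2002 bp. 

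The highest members were at genes of varied function. Trim39, an E3 ubiquitin ligase (chr17:36270569-36272467), reached 29.9, with 30.1 in pool G and 26.4 in pool H. Avl9, a gene of late secretory traffic, reached 29.9, with 33.5 in pool G and 25.8 in pool H. Sin3b, the scaffold of a histone deacetylase complex, reached 29.2, with 33.7 in pool G and 24.7 in pool H. All 3 peaks cover the start and stand without another peak within 1000 bp.

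Rnf34, a RING-finger ubiquitin ligase, followed at 28.6 (33.9 in pool G and 23.1 in pool H) and N4bp2l2 at 28.5 (33.1 and 23.1). Smarcc2, a core subunit of the BAF chromatin remodelling complex, had 28.4 in a peak of only 765 bp whose summit lies 357 bp before the start, so this peak does not cover the start. The peak shared by Actr1a, a dynactin subunit, and Sufu, a brake on Hedgehog signalling, had 28.1. Factors of paused transcription were also among the top, Nelfe of the NELF complex at 28.0 (a peak shared with the RNA helicase gene Skiv2l) and Hexim2, an inhibitor of P-TEFb, at 28.0. Hexim2 was close in both pools (26.9 in G and 25.1 in H).

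Clcn4, an endosomal chloride-proton exchanger, had 28.0, the arginine methyltransferase gene Prmt1 27.8 in a peak of 878 bp, and Zscan2, a zinc finger gene, 27.7. Fen1, the flap endonuclease of DNA replication, shared a peak of 27.7 with Tmem258. Tfam, which packages and transcribes mitochondrial DNA, had 27.6, with 32.2 in pool G and 24.3 in pool H. Dnttip2, a nucleolar protein gene, Srp72 of the signal recognition particle and the phosphatidylserine synthase gene Ptdss2 tied with Tfam at 27.6. None of these is a gene of contraction or cardiac excitation.

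The narrowest members were pieces beside another peak. Ncoa1, a nuclear receptor coactivator, had a peak of 350 bp with a signal value of 22.1 and a neighbour 79 bp away. In pool G's own list it was one peak of 1641 bp, and in pool H 339 bp. The next were Zfp407 at 596 bp, Ralgapa2, a subunit of a GTPase-activating complex for Ral, at 652 bp, Mpv17l2 at 688 bp and the phospholipid flippase gene Atp9a at 695 bp. These 4 were between 593 and 748 bp wide in both pools, for example 658 bp and 643 bp at Ralgapa2, and each had another peak no more than 239 bp away.

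Every member met an overlapping peak in both pools' own lists, as did every strong wide peak. A list replicated over both pools largely sets this in advance. The median signal value was 25.8 in pool G and 18.1 in pool H, and it was higher in pool G for 1348 members (98.8%). The median log2 ratio of pool G to pool H was 0.51 with an SD of 0.21 across the members, so the offset between the pools was larger than the spread of the members around it. The same ratio was 0.52 over the weaker narrow peaks and 0.49 over the strong wide peaks, so the offset was not confined to the members. Pool and signal scale cannot be told apart here, since each pool has 1 list.

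The rule was met in pool G's list by 1135 members (83.2%), in pool H's by 268 (19.6%), and in both by 225 (16.5%). In pool G the misses were mostly widths, since 1339 members reached a signal of 20 and 1157 were under 2000 bp. In pool H they were mostly heights, since 270 reached 20 and 1351 were under 2000 bp. Members were also wider in pool G, with a median of 1659 bp against 1428 bp, and 1200 (87.9%) were wider there. Both pools' reads also made the replicated list, so neither is independent of it.

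**Figure D2:**
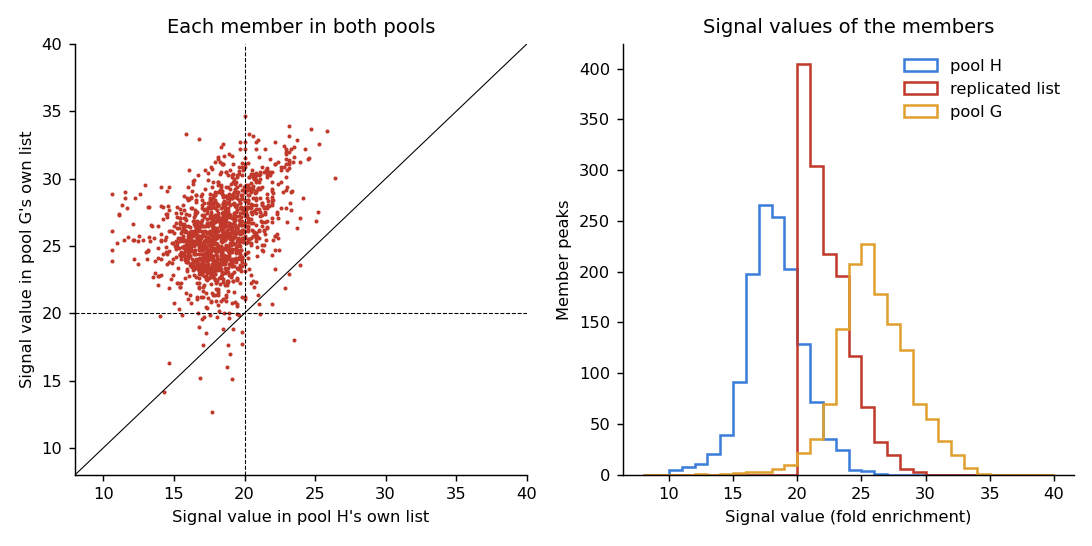
Left, the signal value of each of the 1365 members in pool G's list against pool H's list, with the line of equal values and dashed lines at 20. Right, the number of members per unit of signal value in pool H, the replicated list and pool G. Nearly all points lie above the line, and pool H's values centre at 18.1 against 25.8 in pool G.

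The peaks sat on the start in a fixed arrangement. Of the members, 1286 (94.2%) covered the nearest coding start, against 72.8% of weaker narrow peaks and 97.1% of strong wide peaks. At 992 members the starts in reach, of coding and noncoding genes alike, were all on 1 strand, so a direction could be given. There the summit lay a median of 156 bp inside the gene (quartiles 101 and 218 bp), and downstream of the start in 892 (89.9%). The weaker narrow peaks had a similar median of 128 bp but quartiles of −66 and 236 bp, and 71.9% were downstream. The strong wide peaks had a median of 184 bp with quartiles of 104.5 and 313.5 bp.

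The mark reached a median of 489.5 bp before the start and 988.5 bp into the gene, so 67.1% of the width was downstream. The downstream arm was the longer one at 868 of the 992 members (87.5%). The first exon had a median length of 173 bp, and 958 of these peaks (96.6%) ended beyond it, in the first intron or further. In the strong wide peaks both arms were longer, with 755 bp before and 1770 bp after the start, and the downstream share was 69.8%. The extra width of the wide peaks was thus mostly on the side of the gene body.

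**Figure D3:**
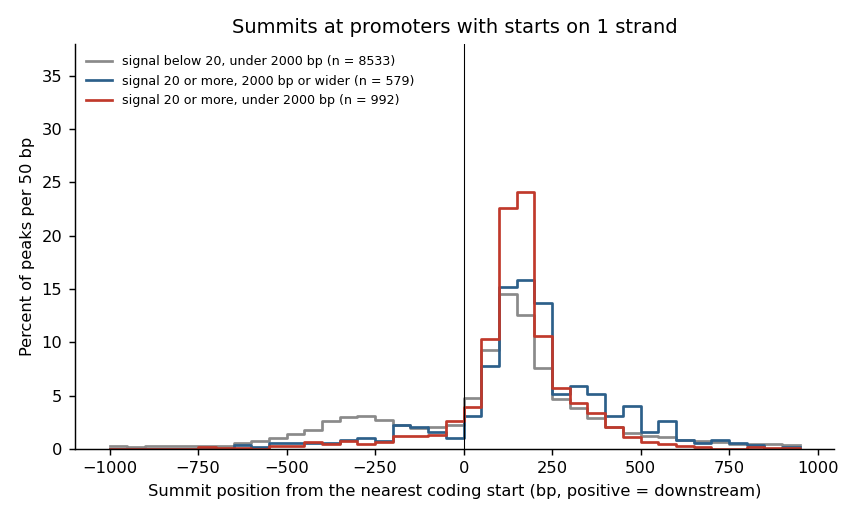
Percent of peaks per 50 bp by the position of the summit relative to the nearest coding start, at promoters with starts on 1 strand (992 members in red, 579 strong wide peaks in blue, 8533 weaker narrow peaks in grey). The members form 1 narrow mode between 100 and 200 bp downstream, while the weaker narrow peaks have a second, lower mode before the start.

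At 398 members another peak of the list lay within 1000 bp, and the other 967 (70.8%) stood alone. The gap to the neighbour had a median of only 134 bp (quartiles 100 and 190 bp), and 311 gaps were under 200 bp. The neighbour was the weaker peak in 384 of 398, which follows largely from the signal limit that chose the members. It had a median signal value of 9.81 and width of 654.5 bp, and it was itself a member in 21. It lay upstream in 298. Among the 196 such cases with starts on 1 strand, the middle of the gap had a median position of −154.5 bp from the start (quartiles −243 and −92.1 bp).

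Joining peaks less than 1000 bp apart left 1075 members (78.8%) in domains still under 2000 bp, and put 29 in domains of 4000 bp or more. The longest, 8361 bp, was at Sptbn1, a spectrin gene. A high-CpG promoter was found at 79.6% of members with a neighbour and 46.4% of those alone, and an ETS site, described below, at 19.8% and 31.6%. Here high-CpG means at least 50% G and C and an observed to expected CpG ratio of at least 0.6. Both were measured over the 1000 bp on either side of a coding start. Any coding start in reach of the peak could qualify it.

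Over all members 766 (56.1%, exact binomial 95% interval 53.4% to 58.8%) had a high-CpG promoter, against 85.9% of the strong wide peaks, 42.3% of the weaker narrow peaks and 50.6% of all promoter peaks. Over the peaks themselves the CpG ratio was the same in members and strong wide peaks, with a median of 0.69 in both. The G and C content was also alike, at medians of 55.6% and 55.2%. Repeat-masked bases made up a median of 23.3% of the flanking 500 bp on each side in members, 21.4% in strong wide peaks and 17.7% in weaker narrow peaks.

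Of the 11 motifs searched, the ETS site had the largest gap in share between members and weaker narrow peaks. Motifs were looked for on both strands from 250 bp before to 50 bp after the nearest coding start. For all coding promoters the start was instead that of each gene's longest transcript, so those shares rest on a different choice of start. ETS letters (CCGGAAG) were found at 385 members (28.2%, interval 25.8% to 30.7%), against 15% (12.8% to 17.4%) of strong wide peaks, 14.3% (13.66% to 15.01%) of weaker narrow peaks and 11.2% of all coding promoters. YY1 letters (AAGATGGCG) were found at 91 members (6.67%), against 4.15%, 2.43% and 1.90%. NRF1 letters (GCGCATGCG) were found at 71 members (5.20%), against 3.09%, 2.79% and 2.15%. With only the longest transcript of each gene, the shares among 1322 members were 26.9% (ETS), 5.67% (YY1) and 5.37% (NRF1).

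GC boxes (GGGCGG) had the next largest gap to the weaker narrow peaks after the ETS site, at 72.9% of members (interval 70.5% to 75.2%) against 65.6% of weaker narrow peaks, while 77.6% of strong wide peaks held one. Letters of the TATA box (TATAAA), at any position in the window, were found at 44 members (3.22%), against 4.57% of strong wide peaks, 6.22% of weaker narrow peaks and 12.5% of all coding promoters. In a longer window, from 500 bp before to 100 bp after the start, the order of the first 2 was the reverse, with 12.97% of members and 11.3% of strong wide peaks. With only the longest transcript of each gene, 4.69% of members held the TATA letters in the shorter window. CCAAT letters stood at 36.8% of members, 32.6% of strong wide peaks and 36.9% of weaker narrow peaks. The E-box CACGTG was found at 12.1% of members, 10.9% of strong wide peaks and 9.52% of weaker narrow peaks. The shorter CRE core TGACGT, which also lies within the full CRE TGACGTCA, was found at 13.5%, 13.1% and 9.82%. The full CRE was found at 3.30%, the ZNF143 core CTACAATTC at 1.10% and the RFX motif GTTGCCATG at 0.659% of members. None of the 11 was found at 85 members (6.23%), against 9.04% of strong wide peaks and 13.5% of weaker narrow peaks.

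The ETS share rose with the signal value among narrow peaks, also within the members. It was 6.18% at signal values from 1 to 5, 8.04% from 5 to 10, 17.7% from 10 to 15 and 23.6% from 15 to 20. Inside the rule it was 26.7% from 20 to 22, 29.3% from 22 to 24, 30.4% from 24 to 26 and 31.7% of the 60 peaks from 26 up, with overlapping intervals. Among peaks of 2000 bp or more it was 6.86% from 5 to 10, 13.6% from 15 to 20 and 14.5% from 20 to 22. From 22 to 24 it was 15.6% of wide peaks, against the 29.3% of narrow ones, and no test of this difference was made.

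**Figure D4:**
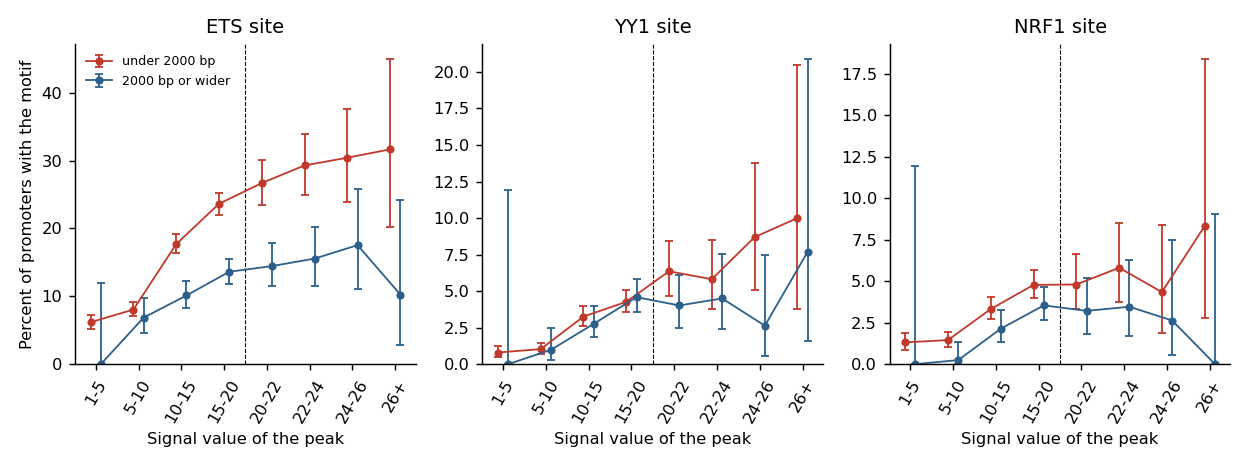
Percent of promoters with ETS, YY1 or NRF1 letters by the signal value of the peak, for peaks under 2000 bp (red) and of 2000 bp or more (blue). Bars are exact binomial 95% intervals, and the dashed line is the signal limit of 20. The ETS share of narrow peaks rises from 6.18% to 31.7% across the bins.

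The difference in ETS share was also present at equal base composition. Where 60% to 65% of the 300 searched bases were G or C, the share was 33.3% in 327 members, 15.1% in strong wide peaks and 18.8% in weaker narrow peaks. From 50% to 55% it was 38.4%, 19.05% and 14.9%, and from 70% to 75% it was 21.1%, 14.0% and 12.2%. In each of the 7 bands from 40% to 90% the members had the highest share of the 3 sets, by the smallest margin where over 75% of bases were G or C (11.8%, 9.27% and 7.40%).

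The ETS sites lay near the start. At the 992 one-strand members 330 sites had a median position of −43 bp, 180 (54.5%) were within 50 bp of the start, and 51.2% read in the direction of the gene. YY1 sites had a median position of 3.5 bp (quartiles −68.5 and 18 bp), and 44 of 62 (71.0%) were within 50 bp of the start. Of the 62, 54 (87.1%) read in the direction of the gene. The CCAAT boxes lay further out, at a median of −103 bp. In the weaker narrow peaks the 3 medians were −45, 5.5 and −102 bp. Most TATA letters lay away from the start, at a median of −172 bp in members. There 12 of 35 (34.3%) were within 50 bp of it, against 44.4% in strong wide and 33.0% in weaker narrow peaks.

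At 158 members (11.6%) a pair of coding genes started head to head no more than 1000 bp apart, against 5.24% of weaker narrow peaks and 16.7% of strong wide peaks. The starts were a median of 111 bp apart and under 300 bp apart in 136. The summit lay between the starts in only 2 of the 158. ETS letters were found at 62 of them (39.2%), against 26.8% of the other members.

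The strongest of these pairs was Nelfe with Skiv2l, 181 bp apart. Fen1 and Tmem258 start 71 bp apart, and BC024978 and the U1 snRNP gene Snrpa 21 bp apart under a peak of 27.6. Mdh2, the mitochondrial malate dehydrogenase, shares a peak of 27.3 with Styxl1, 95 bp away, and this peak had 34.6 in pool G but 20.1 in pool H. Lower in the ranking, the peak of Rhoa and Tcta reached 24.4 and that of the Fanconi anaemia gene Fancd2 and Emc3 24.4.

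The members met the promoter windows of 1544 genes, which is 11.3% of the 13657 protein-coding genes with any promoter peak. The start of 1424 of these lay inside the member peak. Strong wide peaks met 1136 genes (8.32%). A gene can have both kinds only if it has a second promoter peak. Of the 1544 genes, 476 had one, and 13 had both kinds. Over the 24 lists of general cell functions 228 of 1443 marked genes had a member peak (15.8%, interval 14.0% to 17.8%). Over the 7 heart and vessel lists 3 of 134 did (2.24%, interval 0.464% to 6.40%).

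In mitochondrial translation 19 of 78 marked ribosomal protein genes had a member peak (24.4%), led by Mrpl23 at 26.3 and Mrps24 at 25.7. Among cytosolic ribosomal protein genes 14 of 78 (17.9%) had one, led by Rpl32 at 24.7 and Rpl23 at 23.5. Among aminoacyl-tRNA synthetase genes, which charge tRNAs, 10 of 37 (27.0%) did, led by Rars2 at 23.99, in a peak shared with the origin recognition gene Orc3, and Qars at 23.2. Translation factors stood nearer the background with 8 of 61 (13.1%), led by Eif3m at 23.6 and Eif4h at 23.2. Ribosome biogenesis had 8 of 44 (18.2%), with Nol7 at 23.3 and Nol9 at 23.3. The intervals include the background of 11.3% except for mitochondrial ribosomal proteins (15.3% to 35.4%) and tRNA synthetases (13.8% to 44.1%).

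In transcription, RNA polymerase and general factor genes had 14 of 70 (20.0%), led by Polr3a at 27.0 and Taf4 at 26.6. Mediator, the bridge between activators and polymerase, had 7 of 30 (23.3%), led by Med15 at 26.7 and Med7 at 25.4, and no strong wide peak. The splicing list went the other way, with 8 of 67 (11.9%) as members, led by Snrpa at 27.6 and Snrpb2 at 25.1, and 21 (31.3%) as strong wide peaks. DNA repair had 11 of 38 (28.9%), led by the mismatch repair gene Msh6 at 24.4 and by Fancd2, against 1 as a strong wide peak. Nuclear pore genes had 4 of 18, with Nup205 at 23.97 and Nup133 at 23.8, and replication licensing genes 4 of 27, with Orc3 and Orc4. Here the intervals include 11.3% except for polymerase and general factors (11.4% to 31.3%) and DNA repair (15.4% to 45.9%).

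Among organelle and traffic genes, vesicle sorting and tethering had 22 of 123 (17.9%), led by Cog1 of the Golgi complex COG at 27.0 and Snx6 at 25.8. Autophagy had 6 of 27, led by Atg16l1 at 25.5 and Wipi1 at 25.1. Glycan and GPI-anchor assembly had 6 of 34, led by Pigm at 25.2 and Alg9 at 23.6, and mitochondrial import 5 of 27, led by the receptor gene Tomm70a at 25.3 and Tomm22 at 23.8. Centrosome and cilium genes had 11 of 57 (19.3%), led by Cep131 and Cep68. All 5 shares were above 11.3%, and the intervals include it except for vesicle sorting (11.6% to 25.8%).

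Protein quality control was mixed. Proteasome genes had 7 of 37 (18.9%), led by Psmd12 at 24.4 and Psmc2 at 23.4, chaperones 11 of 77 (14.3%), led by Dnajc13 at 26.4 and Dnajc8 at 26.4, and ubiquitin-conjugating enzymes 3 of 33 (9.09%), led by Ube2d1 at 20.8 and Ube2o at 20.2, with 8 as strong wide peaks. The integrated stress response had 3 of 20, including the kinase genes Eif2ak4 at 25.2 and Eif2ak3 at 21.5. Respiratory chain and ATP synthase genes stood at the background with 9 of 83 (10.8%), led by Ndufs4 at 25.5 and Sdhb at 24.4, while 15 had strong wide peaks. Numbered Zfp genes had 37 of 342 (10.8%), led by Zfp654 at 26.9 and Zfp106 at 26.2. None of 23 circadian clock genes had a member peak (upper limit 14.8%), and 7 had a strong wide one. The interval of every list in this paragraph includes 11.3%.

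The share of member peaks with ETS letters varied between the lists, beside 28.2% of all members. It was 9 of 19 in mitochondrial ribosomal proteins, 17 of 37 in the numbered Zfp genes, 11 of 22 in vesicle sorting, 6 of 14 in each of cytosolic ribosomal proteins and polymerase or general factors, and 5 of 9 peaks in tRNA synthetases. It was 1 of 9 in the respiratory chain, 2 of 11 in centrosome and cilium genes, 2 of 8 in ribosome biogenesis, and 3 of 11 in each of DNA repair and chaperones. Over all general lists it was 88 of 223 peaks, a share above that of all members. None of the 3 heart list peaks held the letters.

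**Figure D5:**
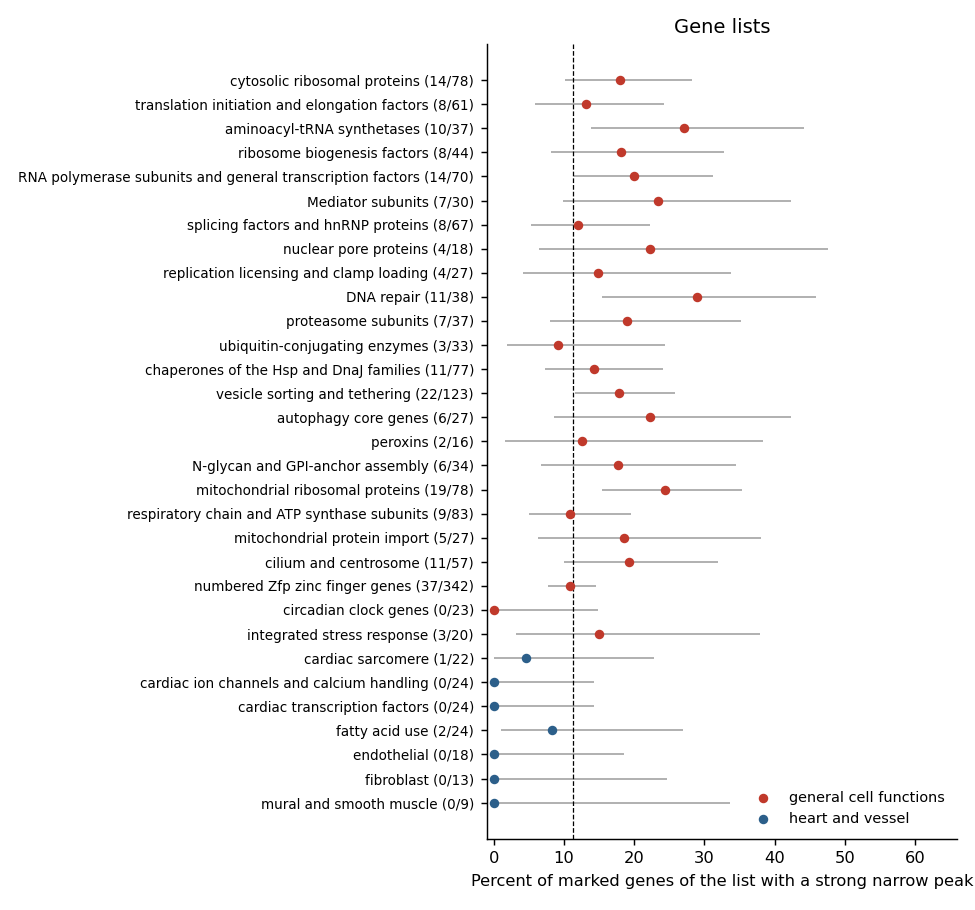
Percent of the marked genes of each list with a member peak (general lists in red, heart and vessel lists in blue), with exact binomial 95% intervals that cover counting error only. The dashed line is 11.3%, the share over all 13657 marked genes, and the labels give members over marked genes. No heart or vessel list exceeds the line, though the interval of each single list reaches past it.

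The 3 heart list genes were Myl4, the atrial essential myosin light chain, at 22.1 in a peak shared with the cell cycle gene Cdc27, Etfa, an electron carrier of fatty acid oxidation, at 21.8, and the citric acid cycle gene Fh1 at 20.7. The lists of ion channels and calcium handling (24 marked genes), cardiac transcription factors (24), endothelial genes (18), fibroblast genes (13) and mural genes (9) had none. The exact upper limits for these lists ran from 14.2% to 33.6%, so each interval includes the 11.3% of all marked genes. Over the marked genes of the 7 lists the median signal value was 11.1 and the median width 2551 bp, against 17.1 and 1630 bp over the general lists. Each of the 7 had a lower median signal value than the general lists together, from 5.90 for fibroblast genes to 14.3 for fatty acid use. The median width was above 1630 bp in 6 of the 7, up to 3735.5 bp for endothelial genes, and 1373 bp for fibroblast genes. Of the genes of other tissues, only the skeletal muscle gene Actn3 had a member peak, at 22.3, and it is shared with Zdhhc24. All 10 defining cardiomyocyte markers, including Myh6, Tnnt2 and Ryr2, and all 7 endothelial markers carried a promoter peak, as did 5 of 6 fibroblast and 4 of 6 mural markers. Of the markers of other cells, 3 of 5 for skeletal muscle and 2 of 4 for neurons carried one, and none of the 5 for leukocytes or 4 for hepatocytes. The longer lists of these cells were not free of the mark. A promoter peak was found at 2 of 18 leukocyte, 2 of 17 hepatocyte, 3 of 19 skeletal muscle and 11 of 18 neuron genes.

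No member lay on the X chromosome. It held 509 promoter peaks, and a count of 0 allows a share of up to 0.589% by 3 counts of the total (0.722% by the exact interval), while 8.95% of the 15246 autosomal promoter peaks were members and the single autosomes ranged from 6.22% to 10.7%. Of the 509, 434 were under 2000 bp. The median signal value of all 509 was 9.29, against 13.7 on the autosomes. The highest X promoter peaks were wide, Ddx3x at 25.05 over 4871 bp and Kdm6a at 21.7 over 2905 bp, both genes known to escape X inactivation. The highest one under 2000 bp was 1810030O07Rik at 18.02, with 21.6 in pool G and 14.1 in pool H.

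Another 24 peaks met the signal and width limits but no coding start. The strongest, at 26.1, covers the snoRNA gene Snord104. Others cover noncoding genes that host or neighbour snoRNAs, such as Dancr at 20.8.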

How the data were processed

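The authors deposited 4 narrowPeak lists on mm10, 1 replicated over both pools, 1 pseudoreplicated over both and 1 for each pool. The fold enrichment (signal value) of a peak is the authors' deposited ratio, read as such from the library notes, since the files name no column. The deposited −log10 q-value was read but supports no result. The deposited summit position is the distance from the peak's start. The peak caller, its threshold, the control's depth and the depth of each library are not given in the sources used here, so no interval on a signal value can be given.

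Peaks were set against GENCODE M21 protein-coding transcripts (1 bp overlap with the window) in Python 3.11.15 with pandas 2.3.3, and the steps were tested on simulated data against bedtools 2.31.1. A member was matched to the pool peak sharing most bases. Sequences came from the RefSeq GRCm38.p6 genome and motifs were exact letters. Intervals are exact Clopper-Pearson and cover counting error only, since neighbouring regions are not independent. No test was run, because each pool gave 1 list. High-CpG promoters, motif windows, gene lists and members were chosen with earlier results of these data known. The genes named were the 15 highest members, the 5 narrowest, those nearest the limits and the top 2 of each list, with every heart, vessel or other tissue gene; the strongest shared promoters, the X peaks and the peaks without a coding start were named after their values were seen. Technical replicates within a pool have no list of their own. A gene that the naming rule picks is not reported here.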

Additional observations from a re-analysis of the deposited data

How the results depend on the processing

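The number of members followed the limits. A signal limit of 15 gave 4085 peaks and 4370 genes, with 53.2% at high-CpG promoters and 9.50% divergent, and a limit of 25 gave 127 peaks and 143 genes, with 9.45% divergent. A width limit of 1500 bp gave 639 peaks and 706 genes, with 48.8% high-CpG, 9.39% divergent and 59.3% alone, and one of 2500 bp gave 62.9% high-CpG. Each pool's own list alone gave from 346 to 2613 peaks, from 391 to 2844 genes, from 50.8% to 65.9% high-CpG, from 9.18% to 9.83% divergent, from 67.1% to 75.0% alone and a median summit offset from 156 to 163 bp. Of the 1544 genes, 1277 were in pool G's set (44.9% of its genes) and 301 in pool H's (77.0% of its genes). Using the longest transcript of each gene moved the summit offset to 193 bp and the divergent share to 9.30%. Domains joined over gaps under 1000 bp had 47.6% high-CpG promoters, and by construction give no value for standing alone. A CpG ratio of 0.5 gave 71.4% high-CpG promoters and one of 0.7 gave 33.8%. A neighbour distance of 3000 bp left 67.03% alone. Keeping only members that stand alone, chosen after seeing the data, gave 46.4% high-CpG and a summit offset of 149 bp.

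The ETS share stayed between 25.2% and 33.1% under every alternative run, at 25.9% for the list of pool G and 29.5% for that of pool H, and was 32.97% in a window from 500 bp before to 100 bp after the start. In that window the TATA share was 12.97%, against 15.4% of weaker narrow peaks and 11.3% of strong wide peaks, which turns its direction against the latter. The list pseudoreplicated over both pools, made from the same reads, gave the same 1365 peaks. No paired analysis was possible because the shared technical replicate numbers belong to libraries without values of their own.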
